A study of Mus musculus with 31 samples.

Results

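Cadherins are calcium-dependent adhesion proteins that join neighbouring cells. The classical members bind the same or a related cadherin on the next cell through their extracellular repeats, and their cytoplasmic tails bind p120-catenin and beta-catenin, which connect through alpha-catenin to actin. Type I members such as E-cadherin (*Cdh1*), N-cadherin (*Cdh2*), P-cadherin (*Cdh3*) and R-cadherin (*Cdh4*) mark epithelial, neural and mesenchymal tissues, and type II members include K-cadherin (*Cdh6*), *Cdh10* and OB-cadherin (*Cdh11*), the last of which is typical of fibroblasts and osteoblasts. In skin, melanocytes adhere to keratinocytes through E- and P-cadherin, and melanoma cells are known for carrying N-cadherin in place of E-cadherin. The 8 genes described here, of 39179 counted, were *Cdh1*, *Cdh2*, *Cdh3*, *Cdh4*, *Cdh6*, *Cdh10*, *Cdh11* and *Cdh13*. The list was chosen by measured values, namely the higher level of *Cdh6* with drug in parental tumors and the difference of *Cdh11* between genotypes, so the values of these comparisons are given as a description, without p-values, and nothing is read from their counts of calls. *Cdh13* (T-cadherin) is held in the membrane by a lipid anchor and has no cytoplasmic tail, so by its structure it is not a classical cadherin, and the list is called cadherin genes below.

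RNA was sequenced from 20 whole tumors and 11 cultures of the mouse melanoma line 20967, which carries Nras+LSL-G12D;Tyr::CreERT2+/o on a C57BL/6 background, and of its derivative without the glucocorticoid receptor (GR KO). The 4 tumor groups of 5 tumors each, taken here as 1 tumor per mouse although the design text can be read otherwise, were parental or GR KO tumors, grown in the skin of C57BL/6 hosts and treated with a control (cetraben cream) or with a glucocorticoid (GC), clobetasol propionate 0.05% ointment applied 3 times weekly. The 4 culture groups were parental cells in DMSO (3 cultures) or clobetasol propionate (2 cultures) and GR KO cells in DMSO (3 cultures) or clobetasol propionate (3 cultures), each kept for 48 hours by the general methods of the study, since the labels give no time. The comparisons ask how GC treatment acts on tumors and on tumor cells, and which part needs the receptor of the tumor cells. The treatment label gives the culture dose as 10 µM whereas library names and the design text state 1 µM. The age of the mice and the time from the start of treatment to collection were not found in the sources used here. The GR KO line was made by CRISPR editing and grown from single-cell colonies, so its genotype and its clone cannot be told apart. The hosts were wild type and kept the receptor in their own cells, control and GC also differed in cream against ointment, and p-values measure the spread between these tumors or cultures. The culture library names all carry the same date, so culture p-values cover no spread between dates.

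The libraries count 3′ ends of messenger RNA, and the deposited values were integer read counts per gene. Totals ran from 15528066 to 26386770 counts per tumor and from 14441166 to 22463188 per culture. Levels are read counts per library size (CPM) scaled with TMM factors over all 31 libraries, given as mean ± SD, and a read number per transcript end depends on the end, so levels of different genes were not compared; the gene with the most counts in a marker list is named only to show where the counts of its sum come from. A count of 3 was taken as the floor of a library, which stood between 0.108 and 0.216 CPM; intervals and floors cover counting error only. The GR KO control tumors stood apart. In replicates 1, 2, 3 and 5 of that group the single gene *Gm26924* took 11.6%, 8.97%, 6.57% and 16.3% of all counts. It took 6.65% in GR KO GC 4, and the most abundant gene of every remaining tumor took at most 5.55%. At the depth of the smallest library these 4 tumors were expected to show 13269, 14649, 14969 and 14137 genes, whereas replicate 4 showed 16566, the other tumor groups 15014 to 16633 and the cultures 13499 to 14127. Mitochondrial counts made up 0.587%, 0.629%, 0.755%, 1.146% and 0.976% in GR KO controls 1 to 5. In the other tumor groups they made up 1.248% to 2.475%, and their part in the values below was not tested.

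The receptor gene *Nr3c1* was counted in every library. Its CPM in replicates 1 to 5 was 62.8, 57.6, 43.9, 55.9 and 50.5 in parental control tumors and 54.2, 23.5, 48.4, 36.4 and 49.6 in parental GC tumors. In GR KO control tumors it was 20.3, 26.7, 31.2, 33.6 and 23.4, and in GR KO GC tumors 47.3, 21.4, 57.7, 31.7 and 46.9. The GR KO control tumors were all under the parental control tumors, while the GC groups overlapped. In cultures it was 33.9, 30.6 and 36.3 (parental DMSO), 40.6 and 34.2 (parental GC), 25.8, 21.6 and 16.6 (GR KO DMSO) and 21.4, 22.4 and 12.9 (GR KO GC). A 3′ read lies outside the edited exon and does not check the knockout. The glucocorticoid-response genes *Tsc22d3*, *Per1* and *Fkbp5* give a functional value. All 3 rose with GC in parental cells (0.878% of all genes called), by log2 fold changes of 3.09, 2.77 and 2.33, and 0 of 3 were called in GR KO cells (0% of all genes) by edgeR's quasi-likelihood test, with 0 at an unadjusted p under 0.05. In GR KO tumors, whose host cells keep the receptor, all 3 rose (6.42% of all genes called), by 1.77, 1.29 and 2.03. In parental tumors the values were 2.34, 2.19 and 1.02, and 2 of 3 met the call rule (*Tsc22d3* and *Per1*; 0.779% of all genes).

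Markers of the labelled cell type were sparse. The pigment gene *Tyr* was at 0 in all 31 libraries, and *Sox10*, *Dct* and *Mlana* were at 0 in all 11 cultures. Of the 7 melanocyte markers, *Mitf* had the most counts in every tumor, and their summed level was 42.5 ± 10.6 CPM in parental control tumors (n = 5) and 10.6 ± 1.36 in parental DMSO cells (n = 3). The cultures instead carried a high level of the smooth-muscle actin gene *Acta2*, at 3667 CPM in parental DMSO cells and 4299 in GR KO DMSO cells, against 523 in parental control tumors. Of the 5 mural markers, 4 were called higher in parental control tumors than in parental DMSO cells, where 46.7% of all genes were called. *Acta2* was the 1 called lower, so its level does not stand for the list.

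Of the 8 genes, 7 passed the filter on low counts in tumors and 3 in cultures (*Cdh2*, *Cdh11* and *Cdh13*). *Cdh10*, mainly a gene of the nervous system, had 1 count in 20 tumors and 1 in 11 cultures and was not detectable at this depth. In cultures, *Cdh1*, *Cdh3* and *Cdh4* were at or under the floor in every library. *Cdh6* was above it in 1 culture, parental DMSO 1, with 9 counts. The cultured cells thus held *Cdh2* and *Cdh13* in every library, parental cultures also held *Cdh11*, and the tumors added *Cdh1*, *Cdh4* and, at low counts, *Cdh3*. *Cdh6* was above the floor in 11 of 20 tumors and in no parental control tumor.

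**Figure D1:**
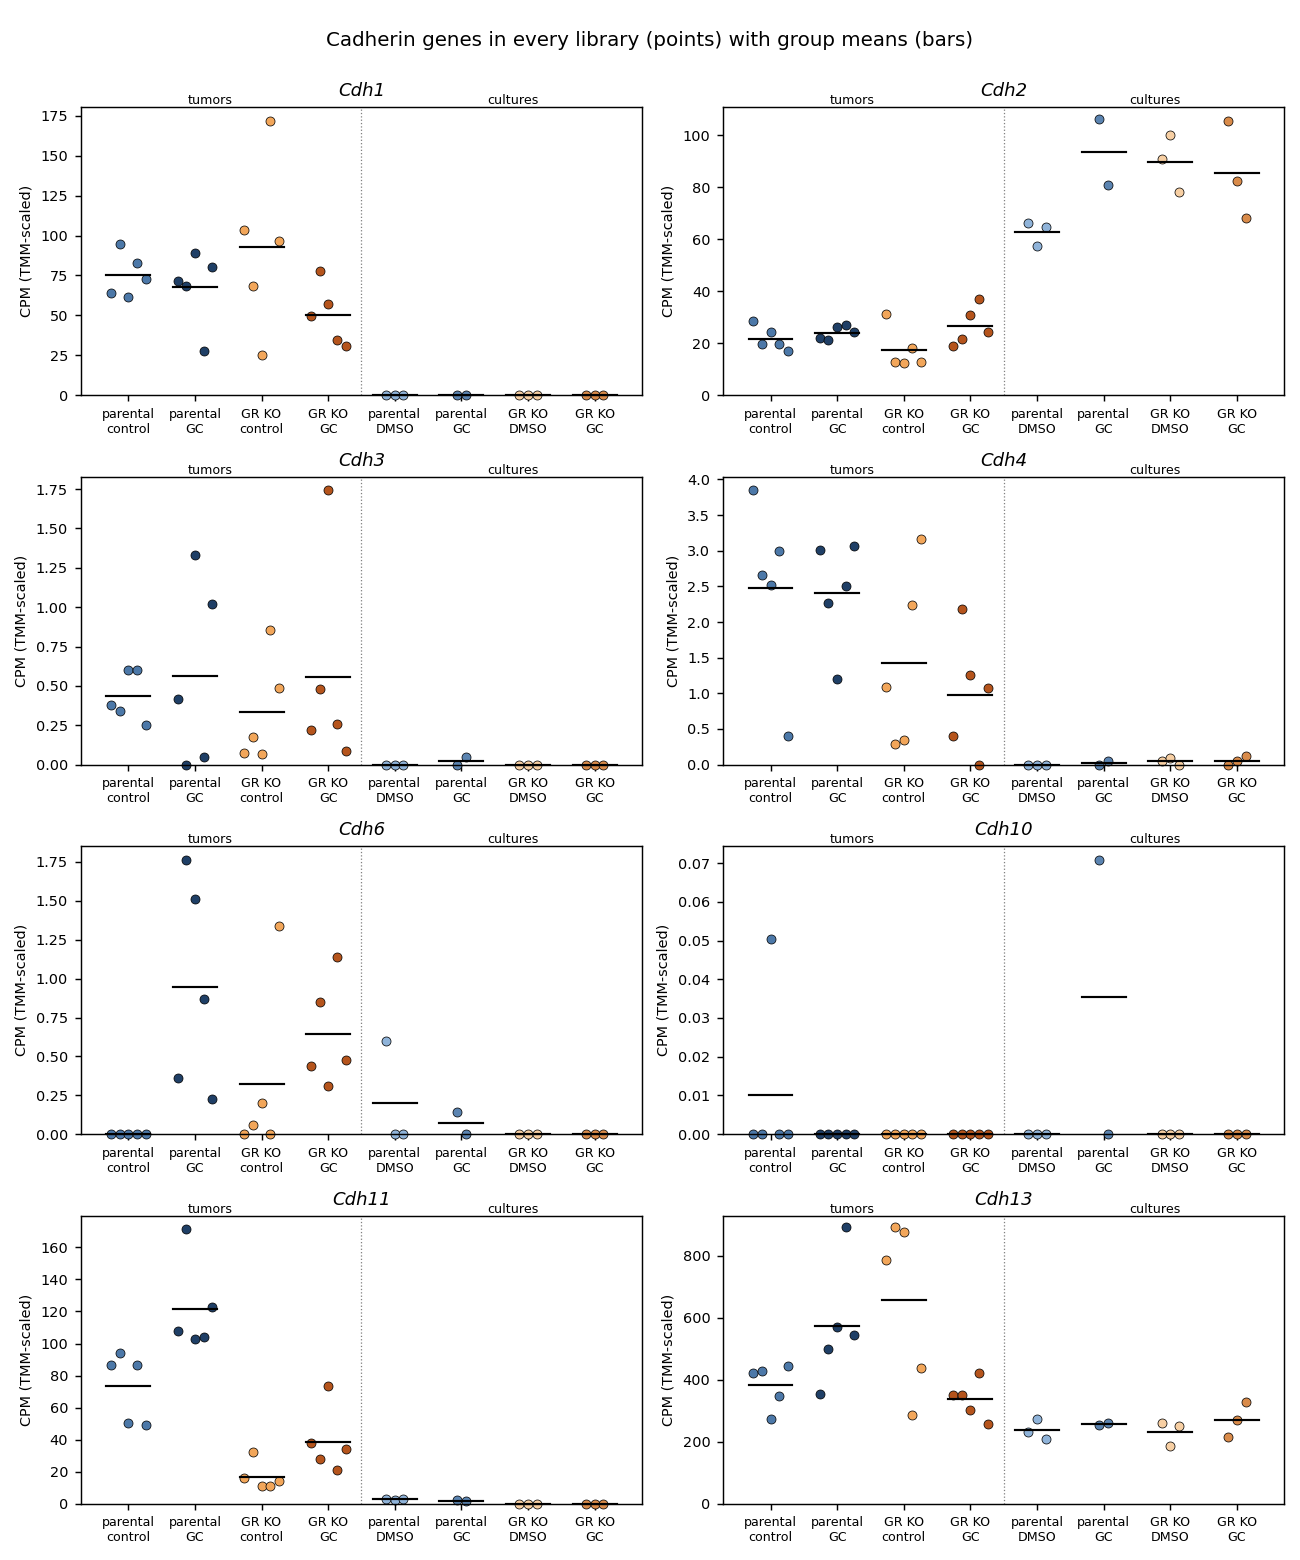
CPM of each cadherin gene (y axis, TMM-scaled, linear from 0) in every library of the 8 groups (x axis; points are libraries, bars are group means). *Cdh11* lies between 103 and 171 in parental GC tumors and between 10.98 and 32.03 in GR KO control tumors, and *Cdh2* is higher in cultures (57.4 to 106) than in tumors (12.5 to 36.8).

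A gene was called where the Benjamini-Hochberg adjusted p of edgeR's quasi-likelihood test was under 0.05 and the linear fold at least 1.5. For GC against control in parental tumors, 1 of 7 cadherin genes met this rule (*Cdh6*), where 0.779% of 15919 genes were called. The members' median log2 fold change was 0.36, against 0.00 over all genes. This comparison chose *Cdh6*, so nothing is read from the count. For GR KO against parental, 1 of 7 met it in control tumors (*Cdh11*; 2.25% of all genes called) and 1 of 7 in GC tumors (*Cdh11*; 0.634% of all genes called). The members' medians were -0.33 and -0.55, against -0.04 and 0.01 over all genes. Both comparisons chose *Cdh11*. The difference of the GC effect between genotypes in tumors, which shares these samples, gave 0 of 7 by edgeR, which called 0.195% of all genes. DESeq2 gave an adjusted p to 4 of the 7 and called 1 (*Cdh13*), where it called 6.95% of 11287 genes.

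*Cdh6*, a type II cadherin of the developing kidney and neural crest, was absent from the counts of every parental control tumor. Its counts in replicates 1 to 5 were 0, 0, 0, 0 and 0 in parental control tumors and 7, 35, 34, 18 and 4 in parental GC tumors. In GR KO control tumors they were 0, 1, 3, 0 and 22, and in GR KO GC tumors 10, 16, 7, 22 and 11. All 5 parental GC tumors lay above all 5 controls, and in GR KO tumors the groups overlapped through control 5 alone. The parental difference, on which *Cdh6* was selected, was 98 counts against 0 and at least 33.5-fold, with the floor of 3 counts set over the group. With parental controls at 0 the fitted value depends on the handling of 0 and is not read. As a description, *Cdh6* met the call rule by edgeR without parental GC 1 and did not meet it without any other of the 10 tumors. It did not meet the rule with the replicate number as a block either, and DESeq2 gave it no adjusted p. In GR KO tumors the log2 fold change with GC was 1.01 ± 1.20 (SE), with an adjusted p of 0.644 by edgeR (exact permutation p = 0.206, two-sided, n = 5 per group). It was 3.25 without GR KO control 5, which held 22 of the 26 counts of its group, and again did not pass. With the number of detected genes as a covariate, chosen after seeing the data, the log2 fold change was 3.01 ± 1.56 (adjusted p = 0.396 by edgeR). With the replicate number as a block it was 2.07 ± 1.55 (adjusted p = 0.437 by edgeR). The exact permutation p was 0.0873 with a pseudocount of 0.1.

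By group, the mean level of *Cdh6* ran from 0.946 ± 0.680 CPM in parental GC tumors through 0.643 ± 0.341 in GR KO GC tumors to 0.320 ± 0.577 in GR KO control tumors (n = 5 each). Neighbours in this order overlapped. The GR KO against parental difference in control tumors was 26 counts against 0, at least 10.3-fold, and rested mostly on GR KO control 5. Parental DMSO cells had 9 counts and parental GC cells 2, a ratio of 3.37 with a 95% counting interval of 0.697 to 32.0 (exact binomial), and the 6 GR KO cultures had 0.

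*Cdh6* (ENSMUSG00000039385) lies on the minus strand of chromosome 15 (GRCm38, 13028701 to 13173675), with at most 12 exons. Its promoter is shown because it is the member that chose the list by its difference with GC. The receptor's consensus half-site, AGAACA or TGTTCT on the other strand, was searched in the 300 bases around each gene start in RefSeq's table (GRCm38.p6). In the copy used here 2 of the 8 genes could be matched to a window (*Cdh6* and *Cdh10*). The *Cdh6* window, chr15:13173626-13173925 on the minus strand, holds no match, so nothing is in capitals, and 19.0% of 32851 promoter windows hold one. No match says only that these letters are not in this window.
Cdh6: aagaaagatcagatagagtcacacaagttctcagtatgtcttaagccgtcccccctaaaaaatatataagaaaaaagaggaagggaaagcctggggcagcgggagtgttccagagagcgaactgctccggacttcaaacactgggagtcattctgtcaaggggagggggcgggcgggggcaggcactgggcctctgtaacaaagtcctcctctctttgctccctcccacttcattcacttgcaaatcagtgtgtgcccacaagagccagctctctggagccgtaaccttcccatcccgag

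*Cdh11* (ENSMUSG00000031673), the cadherin of fibroblasts and bone-forming cells, separated the genotypes in tumors and in cultures. Its CPM in replicates 1 to 5 was 86.3, 94.0, 50.6, 86.4 and 49.2 in parental control tumors and 108, 171, 103, 104 and 123 in parental GC tumors. In GR KO control tumors it was 16.1, 32.0, 10.98, 11.3 and 14.0, and in GR KO GC tumors 37.8, 27.6, 73.4, 21.2 and 34.0. Every GR KO tumor lay under every parental tumor of the same treatment, and every parental GC tumor lay above every parental control tumor. The genotype differences, on which *Cdh11* was selected, were -2.12 ± 0.33 (log2, SE) in control tumors and -1.64 ± 0.32 in GC tumors. Without single tumors they ran from -2.50 to -1.99 and from -1.99 to -1.47, and in GC tumors the call rule was not met without parental GC 2 (-1.47) or GR KO GC 5 (-1.61). The parental difference with GC was 0.74 ± 0.32.

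In GR KO tumors 2 of the 7 fitted cadherin genes met the call rule for GC against control (*Cdh11* and *Cdh13*), where 6.42% of 15919 genes were called, and the median over the 7 was 0.63 against 0.05 over all genes. These 10 tumors also took part in the genotype differences that chose *Cdh11*, and the low GR KO controls enter both, so its value is a description without a p. It was 1.22 ± 0.32. GC tumor 4 (21.2) and GC tumor 2 (27.6) lay within the control range, under control tumor 2 (32.0). The call rule was not met with the number of detected genes as a covariate, an alternative chosen after seeing the data (1.16 ± 0.42), in a fit of these groups alone (1.22), or without control 1 (1.20), control 3 (1.10), control 5 (1.16) or GC tumor 3 (0.87). The difference of the GC effect between genotypes for *Cdh11* was -0.48 ± 0.45.

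The fibroblast markers were summed in the same tumors. Their summed CPM (*Col1a1*, *Col1a2*, *Col3a1*, *Dcn*, *Lum* and *Pdgfra*, none at 0 in any tumor) in replicates 1 to 5 was 6574, 7363, 6680, 7387 and 6746 in parental control tumors and 10780, 7939, 10660, 7485 and 10610 in parental GC tumors. It was 3504, 3795, 4411, 6847 and 4985 in GR KO control tumors and 9732, 7933, 11160, 7080 and 10480 in GR KO GC tumors. *Col1a1* had the most counts of the list in all 5 GR KO control tumors and *Col3a1* in all 5 parental control tumors. With GC in GR KO tumors, where 6.42% of all genes were called, 4 of 6 rose, *Col1a1* by 0.64, *Col1a2* by 1.83, *Col3a1* by 1.03 and *Pdgfra* by 1.17. The GC groups of both genotypes had like sums (9495 ± 1637 and 9277 ± 1720 CPM), while their *Cdh11* levels, 122 ± 28.8 and 38.8 ± 20.3 CPM, did not overlap. The part of fibroblast content in the *Cdh11* values was not tested, and in whole tumors fewer cells of a type and less RNA per cell cannot be told apart.

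**Figure D2:**
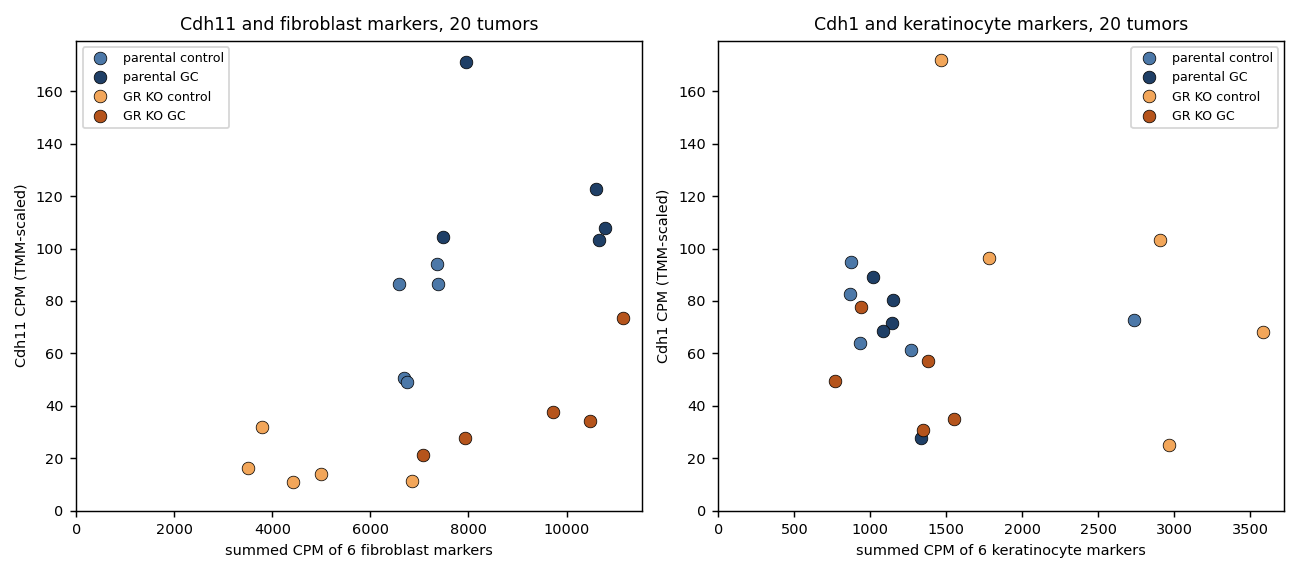
Left, CPM of *Cdh11* (y axis) against the summed CPM of 6 fibroblast markers (x axis), and right, CPM of *Cdh1* against the summed CPM of 6 keratinocyte markers, in the 20 tumors (points, coloured by group). The GR KO GC tumors reach fibroblast sums of 7080 to 11160 and have 21.2 to 73.4 CPM of *Cdh11*, under the 103 to 171 CPM of the parental GC tumors.

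In cultures *Cdh11* was at 3.19, 2.20 and 2.69 CPM in parental DMSO cells and at 2.27 and 1.67 in parental GC cells. All 6 GR KO cultures together held 1 count. For GR KO against parental DMSO cells 1 of 3 fitted cadherin genes met the call rule (*Cdh11*), where 8.22% of 12525 genes were called; the genotype difference of *Cdh11* also chose the list. The ratio was 154 (128 counts against 1), with a 95% counting interval of 27.1 to 6120 (exact binomial). Of the fibroblast markers 5 were fitted in this comparison and all 5 were lower in GR KO cells. The call rule was met by 3, *Dcn* (70 counts against 0), *Col1a1* (-4.30) and *Col3a1* (-1.38), and not by *Pdgfra* (-1.84) and *Col1a2* (-1.12). *Dcn*, like *Cdh11*, passed the filter through the parental cultures, so nothing is read from the calls of these genes.

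*Cdh13* (T-cadherin; ENSMUSG00000031841) is the member with the longest gene, 1041189 bases. Its CPM in replicates 1 to 5 was 420, 426, 274, 347 and 444 in parental control tumors and 353, 498, 569, 893 and 545 in parental GC tumors. In GR KO control tumors it was 787, 893, 876, 285 and 437, and in GR KO GC tumors 349, 352, 302, 422 and 257. GR KO controls 1, 2, 3 and 5 lay above every GR KO GC tumor, and control 4, whose number of detected genes resembled the other groups, lay within their range. In GR KO tumors *Cdh13* fell with GC by 0.95 ± 0.28, with an adjusted p of 0.0455 by edgeR (exact permutation p = 0.0635, two-sided, n = 5 per group, where 0.00794 is the smallest possible). In parental tumors the difference was 0.58 ± 0.28, in the other direction.

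The *Cdh13* call was near the threshold. With the number of detected genes as a covariate, chosen after seeing the data, the log2 fold change was -0.46 ± 0.28 (adjusted p = 0.491 by edgeR), and in a fit of these groups alone the adjusted p was 0.0863 by edgeR. With the replicate number as a block the log2 fold change was -0.94 ± 0.30 (adjusted p = 0.0659 by edgeR). The call was also lost without controls 1, 2 or 3 (-0.87, -0.80 and -0.82) and without GC tumors 1, 2, 3 or 5 (-0.96, -0.96, -0.90 and -0.87). Without control 4 the log2 fold change was -1.14, with an adjusted p of 0.00538 by edgeR, the lowest over all alternatives, which reached 0.491. The difference of the GC effect between genotypes was 1.53 ± 0.40, with 1.73 without GR KO control 4 and 1.08 with the covariate. The genotype difference in control tumors was 0.78 ± 0.28, with 0.97 without that tumor and 0.24 with the covariate. By edgeR both met the call rule without that tumor and neither did with all tumors or with the covariate.

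**Figure D3:**
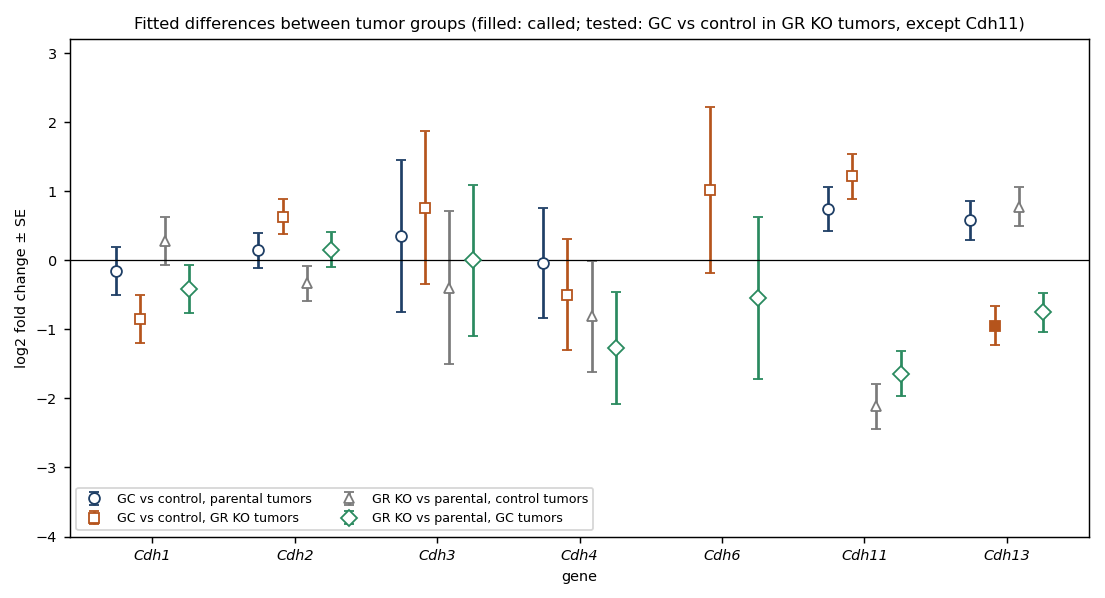
Log2 fold change ± SE (y axis) of 7 cadherin genes (x axis) in 4 comparisons of tumor groups of 5; filled symbols were called by edgeR with GC in GR KO tumors, the 1 comparison of the 4 that was tested (without *Cdh11*), and comparisons of *Cdh6* against parental controls, all at 0, are not drawn. *Cdh13* lies at -0.95 with GC in GR KO tumors and at 0.58 in parental tumors, and *Cdh11* is under -1.6 in both genotype comparisons.

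E-cadherin (*Cdh1*, ENSMUSG00000000303), which joins epithelial cells, was a tumor gene here. In replicates 1 to 5 its CPM was 63.9, 95.02, 61.4, 82.6 and 72.6 in parental control tumors and 71.5, 68.5, 89.3, 27.8 and 80.5 in parental GC tumors. It was 103, 68.1, 24.9, 172 and 96.3 in GR KO control tumors and 49.5, 77.6, 57.0, 34.9 and 30.8 in GR KO GC tumors. All 4 groups overlapped, and the GR KO controls held both the lowest and the highest tumor. In GR KO tumors the log2 fold change with GC was -0.86 ± 0.35, which did not pass (adjusted p = 0.131 by edgeR; exact permutation p = 0.206). Without GR KO control 3, the lowest, it was -1.10 and passed (adjusted p = 0.0348 by edgeR), over a range of 0.0348 to 0.278 across the alternatives. Without single tumors the log2 fold change ran from -1.10 to -0.54.

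The keratinocyte markers (*Krt5*, *Krt14*, *Krt15*, *Krt1*, *Krt10* and *Trp63*, none at 0 in any tumor) stood beside *Cdh1* in tumors. Their summed CPM in replicates 1 to 5 was 932, 872, 1268, 864 and 2736 in parental control tumors and 1142, 1084, 1014, 1332 and 1150 in parental GC tumors. It was 2905, 3583, 2964, 1464 and 1778 in GR KO control tumors and 766, 938, 1378, 1548 and 1344 in GR KO GC tumors. *Krt14* had the most counts of the list in every tumor. The tumor with the most *Cdh1*, GR KO control 4, had the lowest keratinocyte sum of its group, and the tumor with the least, GR KO control 3, had the second highest. With GC in GR KO tumors 3 of 6 were called (6.42% of all genes), *Krt14* down (-1.42) and *Krt1* and *Krt10* up (1.85 and 2.13). In cultures the sum was at most 5.83 CPM. The part of keratinocyte content in the *Cdh1* values was not tested.

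P-cadherin (*Cdh3*), which lies 46053 bases from *Cdh1* on chromosome 8, was sparse, with 0 to 39 counts per tumor and 6 of 20 tumors at or under the floor. Its highest value was 39 counts (1.74 CPM) in GR KO GC 3, and group means ran from 0.332 ± 0.340 to 0.564 ± 0.593 CPM with overlap of all 4 groups. R-cadherin (*Cdh4*), a neural and muscle cadherin, had 0 to 61 counts per tumor. Its group means were 2.48 ± 1.28 (parental control), 2.41 ± 0.755 (parental GC), 1.42 ± 1.26 (GR KO control) and 0.981 ± 0.841 CPM (GR KO GC), again with overlap. In GR KO tumors with GC, *Cdh3* and *Cdh4* had log2 fold changes of 0.76 ± 1.11 and -0.50 ± 0.81, with an adjusted p of 0.713 and 0.743 by edgeR. The sign of *Cdh3* turned without GR KO GC 3 (-0.32) and with the covariate (-0.25), and that of *Cdh4* without GR KO control 5 (0.03).

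N-cadherin (*Cdh2*; ENSMUSG00000024304), the cadherin of neural and mesenchymal cells, was the classical member counted above the floor in all 11 cultures. Its CPM was 66.1, 57.4 and 64.5 in parental DMSO cells, 106 and 80.7 in parental GC cells, 90.7, 99.8 and 78.1 in GR KO DMSO cells and 105, 82.4 and 68.2 in GR KO GC cells. The parental DMSO cultures were the 3 lowest of the 11, and the other 3 groups overlapped. For GC against DMSO in parental cells 0 of 3 tested cadherin genes were called by edgeR and 0 by DESeq2, with 1 at an unadjusted p under 0.05, where edgeR called 0.878% of 12525 genes and DESeq2 2% of 12521. That gene was *Cdh2*, at 0.57 ± 0.19 with an adjusted p of 0.328 by edgeR, higher in 2 of 2 GC cultures than in all 3 controls. The members' median was 0.09, against -0.00 over all genes.

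In GR KO cells GC against DMSO gave 0 of 3 by edgeR and by DESeq2, with 0 at an unadjusted p under 0.05, where edgeR called 0% of 12525 genes, DESeq2 0 genes, and 237 were at an unadjusted p under 0.05. Of these 3, *Cdh11* passed the filter through the parental cultures alone. It had 1 count in GR KO DMSO cells and 0 in GR KO GC cells and could not be called, so nothing is read from it here. *Cdh2* stood at -0.04 ± 0.17, and *Cdh13* at 0.25 ± 0.18. The difference of the GC effect between parental and GR KO cells gave 0 of 3 by edgeR and by DESeq2, with 1 at an unadjusted p under 0.05 (*Cdh2*), where edgeR called 0.295% of genes and DESeq2 1.02%. *Cdh11* is again among the 3, and with 1 count against 0 on the GR KO side nothing is read from it. For *Cdh2* that difference was 0.60 ± 0.25, with an adjusted p of 0.563 by edgeR. The GR KO against parental difference of *Cdh2* in DMSO was 0.50 ± 0.17. *Cdh13* ran from 187 to 328 CPM over the 11 cultures and was not called for GC in either genotype.

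In tumors *Cdh2* ran from 12.5 to 36.8 CPM. Its group means were 21.7 ± 4.56 (parental control), 24.1 ± 2.51 (parental GC), 17.4 ± 7.96 (GR KO control) and 26.4 ± 7.23 (GR KO GC), and all 4 groups overlapped. GR KO control 1 (31.02) lay apart from the other 4 of its group (12.5 to 18.1). With GC in GR KO tumors the log2 fold change was 0.63 ± 0.26 and did not pass (adjusted p = 0.129 by edgeR; exact permutation p = 0.0635). Without GR KO control 1 it was 0.96 and passed (adjusted p = 0.0244 by edgeR), where the alternatives ranged up to 0.255.

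Tumors were also set against cultures. Whole tumors also hold host cells, so material, handling and host cells cannot be told apart in these comparisons. In parental control tumors against parental DMSO cells, 6 of 7 were called, where 46.7% of 16273 genes were called, and in GR KO control tumors against GR KO DMSO cells 7 of 7, where 54.8% were called. Nothing is read from these counts, since *Cdh1*, *Cdh3*, *Cdh4* and *Cdh6* passed the filter through the tumors alone while at or near 0 in cultures, and these control tumors also took part in the comparisons that chose *Cdh6* and *Cdh11*. *Cdh1* was higher in tumors, at least 1200-fold in the parental pair and by a ratio of 1930 (95% counting interval 660 to 9360, exact binomial) in the GR KO pair. *Cdh2* was the member with a lower level in tumors than in cultures in both pairs, at -1.53 ± 0.25 (adjusted p = 6.24e-06 by edgeR) and -2.36 ± 0.25 (adjusted p = 2.18e-09 by edgeR). Every tumor lay under every culture, and the part of host RNA in this difference was not tested.

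*Cdh3* and *Cdh4* were at 0 in parental DMSO cells and at least 6.67-fold and at least 36.0-fold higher in parental control tumors. In the GR KO pair *Cdh3* was at least 7.49-fold higher in tumors and *Cdh4* by a ratio of 29.1 (95% counting interval 9.73 to 143). *Cdh11* was higher in tumors by 4.76 ± 0.45 in the parental pair and by a ratio of 953 (171 to 37600) in the GR KO pair. *Cdh13* was higher in tumors than in cultures in the GR KO pair (1.50 ± 0.30, adjusted p = 0.000100 by edgeR), with every tumor above every culture. In the parental pair it was 0.68 ± 0.29 and did not pass (adjusted p = 0.0513 by edgeR), but it passed with DESeq2 (adjusted p = 0.0480, where DESeq2 called 48.4% of 16270 genes), with at least 10 counts in every library (adjusted p = 0.0287 by edgeR), in a fit of these groups alone (adjusted p = 0.0179 by edgeR) and without parental control 3 (0.81, adjusted p = 0.0275 by edgeR). In the parental pair *Cdh6* had 9 counts in 1 culture and 0 in the tumors. In the GR KO pair it had 26 counts in tumors, at least 5.72-fold, with 22 of them in GR KO control 5. It did not meet the call rule without that tumor or without any 1 of the DMSO cultures, nor in the parental pair with DESeq2.

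The partners of the cadherins were counted as lists. Of the other 11 classical cadherin genes, *Cdh5* and *Cdh22* passed the filter in tumors and none did in cultures. *Cdh5*, the cadherin of endothelium, was at 5.82 ± 1.45 CPM in parental control tumors, 2.60 ± 1.34 in parental GC, 5.71 ± 2.52 in GR KO control and 4.71 ± 2.21 in GR KO GC tumors. Neither was called between tumor groups by edgeR. With GC in GR KO tumors *Cdh5* stood at -0.23, and *Cdh22* had 43 counts in the controls and 3 in the GC tumors, the 1 of these 2 at an unadjusted p under 0.05, as were 3893 of 15919 genes.

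Of 11 catenin and actin-linker genes, 9 were tested. With GC in GR KO tumors, where 6.42% of all genes were called, 2 were called: *Arvcf*, a catenin of the p120 family, rose by 4.04 ± 1.08 (adjusted p = 0.0281 by edgeR), and *Pkp4*, another armadillo protein of cell contacts, fell by 0.65 ± 0.19 (adjusted p = 0.0439 by edgeR). *Arvcf* had 0 counts in GR KO controls 1, 2, 3 and 5, the tumors with fewer genes detected, 7 in control 4 and 10 to 50 in the GC tumors, and the part of detection in its value was not tested. The call of *Pkp4* was near the threshold and was not followed over the alternatives. The median of the list was 0.33. Beta-catenin (*Ctnnb1*) stood at 0.64 ± 0.20, with an adjusted p of 0.0558 by edgeR. In parental tumors 0 of 9 were called by edgeR, where 0.779% of all genes were, and the median was -0.54 against 0.00 over all genes. In DMSO cells *Ctnnd2*, the neural p120-like catenin, was higher in GR KO than in parental cultures (2.84 ± 0.32), the 1 call of 9 where 8.22% of all genes were called.

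Of the 9 genes of cadherin processing, which include the proprotein convertase *Furin*, the sheddase *Adam10* and the gamma-secretase subunits, 0 were called with GC in GR KO tumors by edgeR, with 2 at an unadjusted p under 0.05, as were 3893 of 15919 genes, and a median of -0.30. *Adam10* stood at 0.68 ± 0.21, with an adjusted p of 0.0549 by edgeR. Of the 7 transcription factors that regulate E-cadherin, 2 rose there, where 6.42% of all genes were called: *Snai2* by 0.93 ± 0.28 (adjusted p = 0.0432 by edgeR) and *Twist1* by 1.65 ± 0.45 (adjusted p = 0.0321 by edgeR), both known repressors of *Cdh1*. Both calls were near the threshold. The alternatives were followed for the cadherin genes alone, so whether these calls hold under them was not tested. The median was 0.37, and *Zeb1* and *Zeb2* stood at -0.29 and -0.39 and did not pass. Between parental control tumors and parental cultures 5 of 7 were called, where 46.7% of all genes were: *Snai1* (4.12), *Zeb1* (0.72) and *Zeb2* (1.65) were higher in tumors and *Snai2* (-0.73) and *Twist2* (-1.04) lower. In the GR KO pair 6 of 7 were called, where 54.8% of all genes were: *Zeb1* (1.40) and *Zeb2* (2.22) were higher in tumors and *Snai2* (-0.79), *Twist1* (-1.24) and *Twist2* (-0.71) lower. The other call there, *Grhl2* (46 counts against 0), passed the filter through the tumors alone, so nothing is read from it. In parental tumors with GC, 0 of 9 processing genes and 0 of 7 regulators were called by edgeR, where 0.779% of all genes were. With GC in parental cells 0 of 9 linkers, 0 of 9 processing genes and 0 of 6 regulators were called by edgeR, with 0, 0 and 0 at an unadjusted p under 0.05, where 0.878% of all genes were called and 1062 of 12525 were at an unadjusted p under 0.05.

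Markers of other cell types were also counted in GR KO tumors. Endothelial markers summed to 86.4 to 106 CPM in GR KO control tumors and 45.6 to 55.7 in GR KO GC tumors, with the most counts from *Kdr* in all 5 controls. *Kdr* was called (-1.32), the 1 call of 6 where 6.42% of all genes were called, with 4 at an unadjusted p under 0.05 by edgeR, all 6 lower with GC and a median of -0.84. In parental tumors all 6 were lower as well, with 0 of 6 called by edgeR where 0.779% of all genes were, and the sum was 55.6 ± 11.8 CPM with control and 31.3 ± 8.35 with GC (n = 5 each). With GC in GR KO tumors, 0 of 5 mural, 0 of 3 Schwann, 0 of 3 skeletal muscle, 0 of 4 leukocyte and 0 of 5 melanocyte markers were called by edgeR, with 0, 1, 2, 1 and 0 at an unadjusted p under 0.05, as were 3893 of all 15919 genes. Their medians were 0.06, -0.53, -0.62, -0.07 and 0.30. Whether these cell types have a part in the values of *Cdh11* and *Cdh13* was not tested.

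The genes most like *Cdh11* over the 20 tumors, by Pearson's r of log2(CPM + 1) among the other 15918 genes that passed the filter, were *Osbpl6* (0.942), *Gas1* (0.938), *Gpc6* (0.935), *Nkd2* (0.918) and *Yme1l1* (0.903). Of these, 4 were also among the 5 highest by Spearman's rho. For *Cdh6* they were *Usp14* (0.809), *Adarb1* (0.768), *Dnajc25* (0.761), *4931406B18Rik* (0.759) and *Elmo2* (0.754), of which 0 were among the 5 highest by rho, and in counts this sparse such values carry little. The points share the 4 groups, so r over all tumors includes the differences between groups. On deviations from group means r was 0.699, 0.567, 0.514, 0.475 and 0.568 for the 5 genes most like *Cdh11* and 0.714, 0.692, 0.528, 0.867 and 0.796 for those most like *Cdh6*, in the same orders.

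The genes lie on 4 chromosomes. *Cdh1* (106603351 to 106670246), *Cdh3* (106510891 to 106557297), *Cdh11* (102632095 to 102785642) and *Cdh13* (118283733 to 119324921) are on chromosome 8 of GRCm38, and *Cdh6* and *Cdh10* (18818947 to 19014236) are on chromosome 15, 5645271 bases apart. *Cdh4* (179442431 to 179899373) is on chromosome 2 and *Cdh2* (16588877 to 16809246) on chromosome 18. The near neighbours *Cdh1* and *Cdh3* were at the floor in cultures and counted in tumors, while *Cdh13* was counted in all 31 libraries. Annotated genes that overlap a member had between 0 and 10 counts over all libraries where they were counted (5 of 11), and none spans an exon of the member. Whether reads of the other strand were counted to the members was not tested.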

How the data were processed

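The authors trimmed reads with Trim Galore 0.6.5, aligned them with STAR 2.6.1d to mm10 and made the deposited count table with featureCounts and Ensembl 75; its strand setting and version were not found in the sources used here. The 8 cadherin genes were matched by symbol, and positions came from GENCODE M21 (GRCm38). Genes that reached 0.5 CPM in 3 or more libraries were fitted over the 4 tumor groups, the 4 culture groups or all 8 groups in edgeR 4.0.16 (R 4.3.3) with TMM factors and the quasi-likelihood test, with Benjamini-Hochberg adjustment over all genes; a call needed a linear fold of 1.5 or more beside an adjusted p below 0.05. Standard errors were derived from the test statistic. Exact permutation tests compared log2(CPM + 1). The pipeline was tested on simulated data.

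The members and the gene lists were chosen with earlier results of these data known. Genes named were the 8 members, genes of the lists, and the 5 genes most like *Cdh6* and *Cdh11*; *Acta2*, *Nr3c1* and *Gm26924* were singled out after their values were seen or as checks. Comparisons that chose the members are given without p, and so is *Cdh11* in GR KO tumors, which shares its tumors with them. Alternatives were DESeq2 1.42.0, its size factors within edgeR, no count filter or at least 10 counts in every library, the compared groups alone, no minimum fold or 2, a pseudocount of 0.1, the replicate number as a block, Spearman's rho, and leaving out each library. The number of detected genes as a covariate and *Gm26924* left out were added after seeing the data.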

Additional observations from a re-analysis of the deposited data

Results flagged for a closer look

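In 5 of 28 groups of tumors looked at, 1 tumor stood far from the other 4 of its group, measured as its gap to the nearest tumor divided by the range of the group. The limit for 5 tumors is 0.71, a limit that about 1 in 20 groups of normally distributed values would pass. CPM of sparse counts are not so distributed, and the same tumors recur over the genes. The number flagged is therefore not set against that rate. *Cdh6* in GR KO control 5 had a value of 0.848, with 22 counts against 3 or fewer in the rest. *Cdh11* in GR KO control 2 had 0.757, at 32.0 CPM above 4 tumors of 10.98 to 16.09. *Cdh11* in parental GC 2 had 0.712, at 171 CPM above 103 to 123. *Cdh3* in GR KO GC 3 had 0.763, with 39 counts against 9 or fewer. *Cdh10* in parental control 3 had a value of 1, from a single count.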

How the results depend on the processing

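The number of cadherin genes called moved in these cases. With DESeq2 it was 0 for GC in parental tumors (376 of 11596 genes called), where *Cdh6* was given no adjusted p and so was not tested. It was 2 for genotype in control tumors (1001 of 14985 genes) and 1 for the difference of the GC effect in tumors (784 of 11287 genes). With at least 10 counts in every library, which removes the sparse genes, it was 0 of 4 fitted for GC in parental tumors (142 of 10717 genes called). It was 0 of 2 for genotype in DMSO cells (661 of 10384 genes). In the parental and the GR KO tumor and culture pair it was 2 of 2 fitted each (4430 and 5069 of 9179 genes). With the compared groups alone it was 5 in each of these pairs, where 5 were fitted (7999 of 14662 and 7250 of 14152 genes called). For GC in GR KO tumors it was 1 with a minimum fold of 2 (583 of 15919 genes called) and 0 with the compared groups alone (391 of 14928 genes). It was 0 as well with the number of detected genes as a covariate, chosen after seeing the data (217 of 15919 genes). Without single libraries it ran from 0 to 1 for GC in parental tumors, 0 to 2 for GC in GR KO tumors, 1 to 3 for genotype in control tumors (3 without GR KO control 4), 0 to 1 in GC tumors, 0 to 2 for the difference of the GC effect in tumors, 5 to 7 in the parental and 6 to 7 in the GR KO tumor and culture pair. Over all genes and with all libraries, the numbers called ranged over the alternatives from 105 to 502 (GC in parental tumors), 217 to 1756 (GC in GR KO tumors), 57 to 1001 and 91 to 353 (genotype in control and GC tumors), 11 to 784 (difference of the GC effect in tumors), 59 to 251 (GC in parental cells), 661 to 1424 (genotype in DMSO cells), 27 to 128 (difference in cells), and 4430 to 7999 and 5069 to 9182 (parental and GR KO tumor and culture pair). Without single libraries they ranged, in the same order, from 60 to 179, 303 to 2411, 61 to 1762, 40 to 114, 0 to 1288, 31 to 78, 594 to 916, 17 to 43, 6438 to 7460 and 7680 to 9266. For GC in GR KO cells the number was 0 throughout. In the tested comparisons the sign turned for *Cdh3* with GC in GR KO tumors with the covariate (-0.2483), and without single libraries for *Cdh3* there (-0.3153 to 1.437), *Cdh4* there (-1.008 to 0.03319), *Cdh2* with GC in GR KO cells (-0.201 to 0.07281) and *Cdh13* in the difference between cells (-0.3133 to 0.01615); the cause was not tested. In the comparisons that chose the members it turned in at least 1 alternative for *Cdh1*, *Cdh3* and *Cdh4* with GC in parental tumors, *Cdh1* and *Cdh3* for genotype in control tumors, *Cdh3* for genotype in GC tumors, *Cdh3* and *Cdh4* for the difference of the GC effect in tumors and *Cdh13* for genotype in DMSO cells. Size factors, no count filter and no minimum fold changed no count of cadherin genes called. *Gm26924* left out (added after seeing the data) was run for the comparisons among tumors alone and changed no count there.

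Same-numbered tumors had deviations from their group means with a mean correlation of 0.0581 over 30 pairs, and cultures 0.0198 over 15. The values ran from -0.546 to 0.415 in tumors and from -0.55 to 0.618 in cultures, and all 5 between parental GC and GR KO GC tumors were above 0. The labels tie no replicate number to a mouse or litter. The culture library names all carry the same date and a letter that follows the replicate number, whose meaning is not stated. Replicates were therefore not taken as paired. With the replicate number as a block, the cadherin genes called were 0 for GC in parental tumors, where 164 of 15919 genes were called. For GC in GR KO tumors the number was 1, where 994 of 15919 genes were called (*Cdh13* had an adjusted p of 0.0659 by edgeR).

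Depth limits *Cdh3*, *Cdh4*, *Cdh6* and *Cdh10*, whose counts per library were at most 61. With 2 parental GC cultures, leaving out 1 leaves a lone library, which is assumed to vary like the other groups.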
